A study of Sus scrofa with 70 samples.

Results

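The zinc transporter and metallothionein genes of the boar reproductive tract were the 24 genes whose name in the deposited annotation begins with SLC30A, SLC39A, MT1, MT2 or MT3, metallothioneins alone being kept among the MT names. They comprised 9 SLC30A genes, 13 SLC39A genes and 2 metallothioneins (MT1A and MT3), out of 35680 genes in the expression table. Of the 24, 23 reached at least 1 TPM (a relative transcript abundance scaled by length) in at least 3 libraries and were tested among 19911 genes. The remaining member, SLC39A12, a transporter best known from brain, was at most 0.246 TPM in testis and was listed at 0 in every other gland.

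Cells handle zinc with a pair of transporter families that work in opposite directions. The SLC30A proteins (ZnT) move zinc out of the cytosol, either across the plasma membrane or into vesicles and organelles, whereas the SLC39A proteins (ZIP) bring zinc into the cytosol from outside or from stores. Metallothioneins are small, cysteine-rich proteins that bind zinc, copper and cadmium, and their genes are switched on by metals through the factor MTF1. In the male tract, zinc is needed for sperm chromatin and for sperm membranes, and the accessory glands release it into seminal plasma.

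The study sampled adult boars aged 12 months, from which the testis and epididymis and 3 secretory glands (the vesicular, the bulbourethral and the prostate gland) were taken. The boars belonged to Diannan small-ear pigs (DSE) or to the Banna mini-pig inbred line (BMI), which was derived from DSE by inbreeding, so the breeds share ancestry. Of the 70 samples, 30 short-read RNA-seq libraries (3 of each breed in each gland) and 10 long-read Iso-seq libraries (1 of each breed in each gland) were used here. No treatment or transgene was involved, and no source states that the 3 libraries of a group came from separate animals, so p-values measure the spread between these samples, which may be technical.

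Testis, vesicular gland and prostate gland carried the markers listed for them, whereas of the bulbourethral markers 3 were in the table and BPIFB1 was at 0 in that gland. The 10 most abundant genes took between 9.94% and 67.0% of a library's TPM, which sum to a fixed total. On the log2 scale, the median difference of all genes was -0.69 in vesicular gland, -0.28 in prostate gland, -0.05 in bulbourethral gland, 0.25 in epididymis and 0.31 in testis. In several libraries the markers stood apart from those of their group. The library BMI prostate gland 2 held 138100 TPM of vesicular gland markers, against at most 8.90 in the other 5 prostate libraries. Germ cell markers summed to 23540 TPM in DSE testis 2 and to 68310 or more in the other testis libraries. That library also had the highest Leydig cell markers (63340 TPM, against 18530 to 32260) and Sertoli cell markers (640 TPM, against 217 to 385). CRISP1 was 21.3 TPM in DSE epididymis 1, and at least 1100 in the other epididymis libraries, but the summed epididymis markers of that library (2454 TPM) were not the lowest, and its GPX5 (928 TPM) was the second highest. Vesicular gland markers summed to 4324 TPM in BMI epididymis 1 and 983 in DSE epididymis 2, and to at most 141 in the other epididymis libraries. Epididymis markers were highest in BMI epididymis 2 (37800 TPM, against 1850 to 10200), and skeletal muscle markers were highest in DSE bulbourethral gland 3 (1803 TPM) and BMI epididymis 1 (746 TPM). Results that these libraries changed are given with and without them.

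The first question was how the transporters were distributed over the 5 glands. Mean levels over the 30 libraries were highest for SLC39A7 (146.5 TPM), SLC30A2 (121.0 TPM), MT1A (57.2 TPM), SLC39A11 (45.8 TPM), MT3 (43.5 TPM) and SLC39A1 (40.5 TPM); TPM is per transcript length, so levels of different genes can be set side by side. SLC30A2 was concentrated in vesicular gland and epididymis, SLC39A8 in bulbourethral gland, and MT1A, SLC30A8 and SLC39A4 in testis. These are bulk tissues, in which fewer cells of a type and less RNA per cell cannot be told apart.

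**Figure D1:**
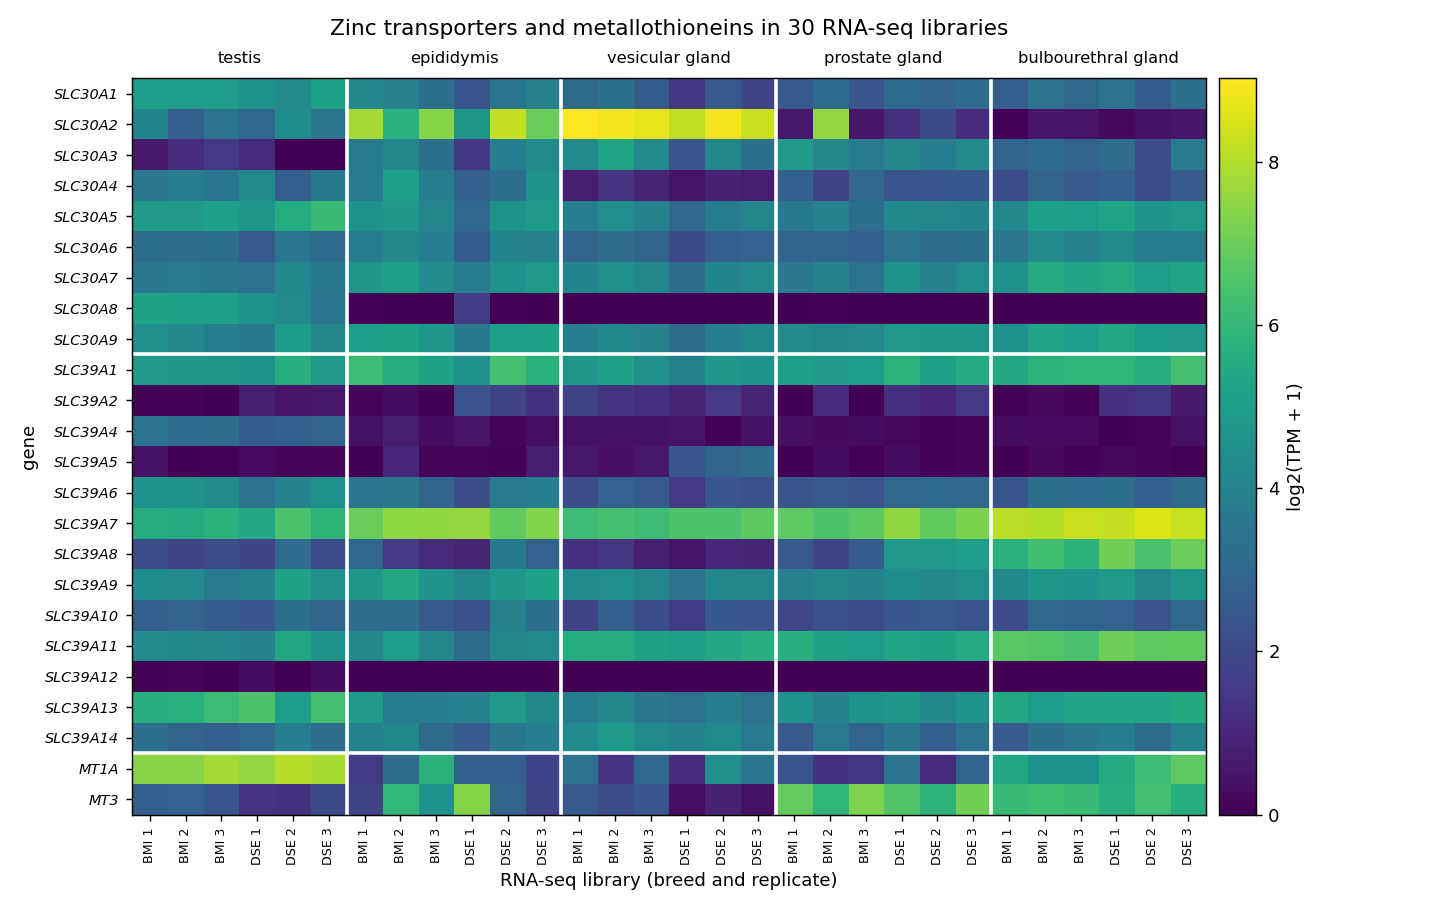
Level of each zinc transporter and metallothionein gene (rows) in each of the 30 RNA-seq libraries (columns, grouped by gland and breed), as log2(TPM + 1). SLC39A7 was high throughout and highest in bulbourethral gland (258 to 386 TPM), whereas SLC30A2 was high in vesicular gland, in epididymis (26.0 to 300.4 TPM) and in the library BMI prostate gland 2.

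Each gland was compared with the mean of the other 4 by limma on log2(TPM + 1), and a member was called at a Benjamini-Hochberg adjusted p below 0.05 with a log2 difference of at least 1. In testis, 11 of 23 members were called (7 higher and 4 lower), where 47.3% of all genes were called (34.5% higher and 12.7% lower). Vesicular gland gave 11 calls as well, of which 3 were higher and 8 lower, against 33% of all genes (2.96% higher and 30% lower). Bulbourethral gland gave 8 calls (6 higher and 2 lower), against 20.4% of all genes (8.44% higher and 12% lower). Epididymis gave 5 calls (2 higher and 3 lower), with 21.6% of all genes called, 15.1% higher and 6.55% lower. Prostate gland also gave 5 (2 higher and 3 lower), with 16.5% of all genes called, 3.71% higher and 12.8% lower. SLC30A8 and SLC39A4 passed the filter on low values through testis, and SLC39A5 through the DSE libraries of vesicular gland, where they are high, so their gland calls are a description, given without a p. The median difference of the 23 members was -0.68 in vesicular gland, -0.36 in testis, -0.34 in prostate gland, 0.18 in bulbourethral gland and 0.22 in epididymis. Median-of-ratios size factors, and rescaling without the 10 most abundant genes, each ended the lower calls of MT1A, SLC30A1, SLC39A6 and SLC39A13 in vesicular gland. The 8 members that were called in none were SLC30A5, SLC30A6, SLC30A9, SLC39A1, SLC39A2, SLC39A9, SLC39A10 and SLC39A14. Between pairs of glands, 93 of 230 member-by-pair tests were called, with 33.1% of all such tests called over all genes.

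**Figure D2:**
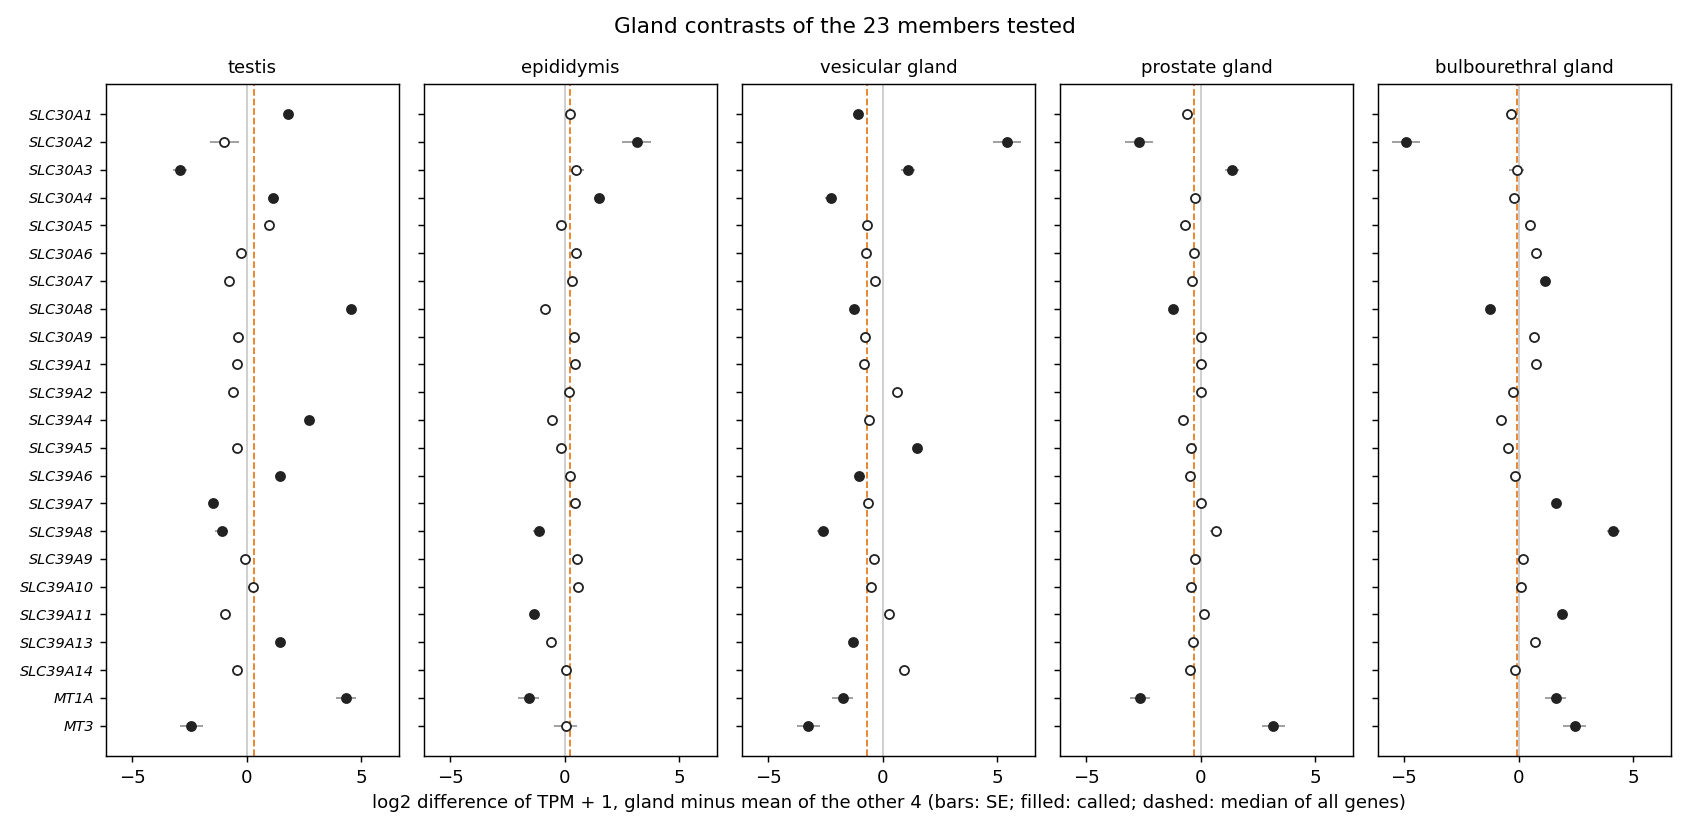
Log2 difference of each member between 1 gland and the mean of the other 4 (5 panels, 1 for each gland), with bars of 1 standard error, filled points for called members and a dashed line at the median of all genes. The points for SLC30A2 run from 5.43 in vesicular gland to -4.91 in bulbourethral gland, and those for SLC39A8 from 4.14 in bulbourethral gland to -2.60 in vesicular gland.

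Among the zinc exporters, SLC30A2 (ENSSSCG00000026386, chr6:83474351-83486994 of Sscrofa11.1, minus strand) had the widest range. It encodes ZnT2, which loads zinc into secretory vesicles and is known from the lactating mammary gland. In vesicular gland the lowest, median and highest of 6 libraries were 283, 443 and 520 TPM. In epididymis they were 26.0, 146 and 300.4 TPM, and in testis they were between 5.68 and 20 TPM. The bulbourethral libraries lay between 0.0631 and 0.474 TPM, below every library of the other glands except that the lowest prostate library (0.445 TPM) was within their range. BMI prostate gland 2, the library with vesicular gland markers, had 186.6 TPM, while the other 5 prostate libraries had 0.445 to 3.07 TPM. The log2 difference was 5.43 (SE 0.62, adjusted p = 5.60e-08) in vesicular gland and 3.14 (SE 0.62, adjusted p = 1.42e-04) in epididymis. It was -2.68 in prostate gland (adjusted p = 9.00e-04) and -4.91 in bulbourethral gland (adjusted p = 1.66e-07). Vesicular gland exceeded epididymis by 1.83 (SE 0.78, adjusted p = 0.0452), and epididymis exceeded testis by 3.29 (adjusted p = 6.22e-04). The highest epididymis values, 300.4 and 223 TPM, were those of DSE epididymis 2 and BMI epididymis 1, which held vesicular gland markers. Without both libraries (an alternative chosen after seeing the data), the epididymis mean was 93.1 TPM ± 64.9 (SD, n = 4) in place of 149 ± 103.5 (SD, n = 6), and the difference was 2.54 (SE 0.72, adjusted p = 0.00530). Vesicular gland then exceeded epididymis by 2.43 (adjusted p = 0.0202), and epididymis exceeded testis by 2.69 (adjusted p = 0.00780). Without BMI prostate gland 2, the prostate mean was 1.30 TPM ± 1.07 (SD, n = 5), in place of 32.2 ± 75.6 (SD, n = 6), and the prostate difference was -3.85 (adjusted p = 1.41e-08).

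**Figure D3:**
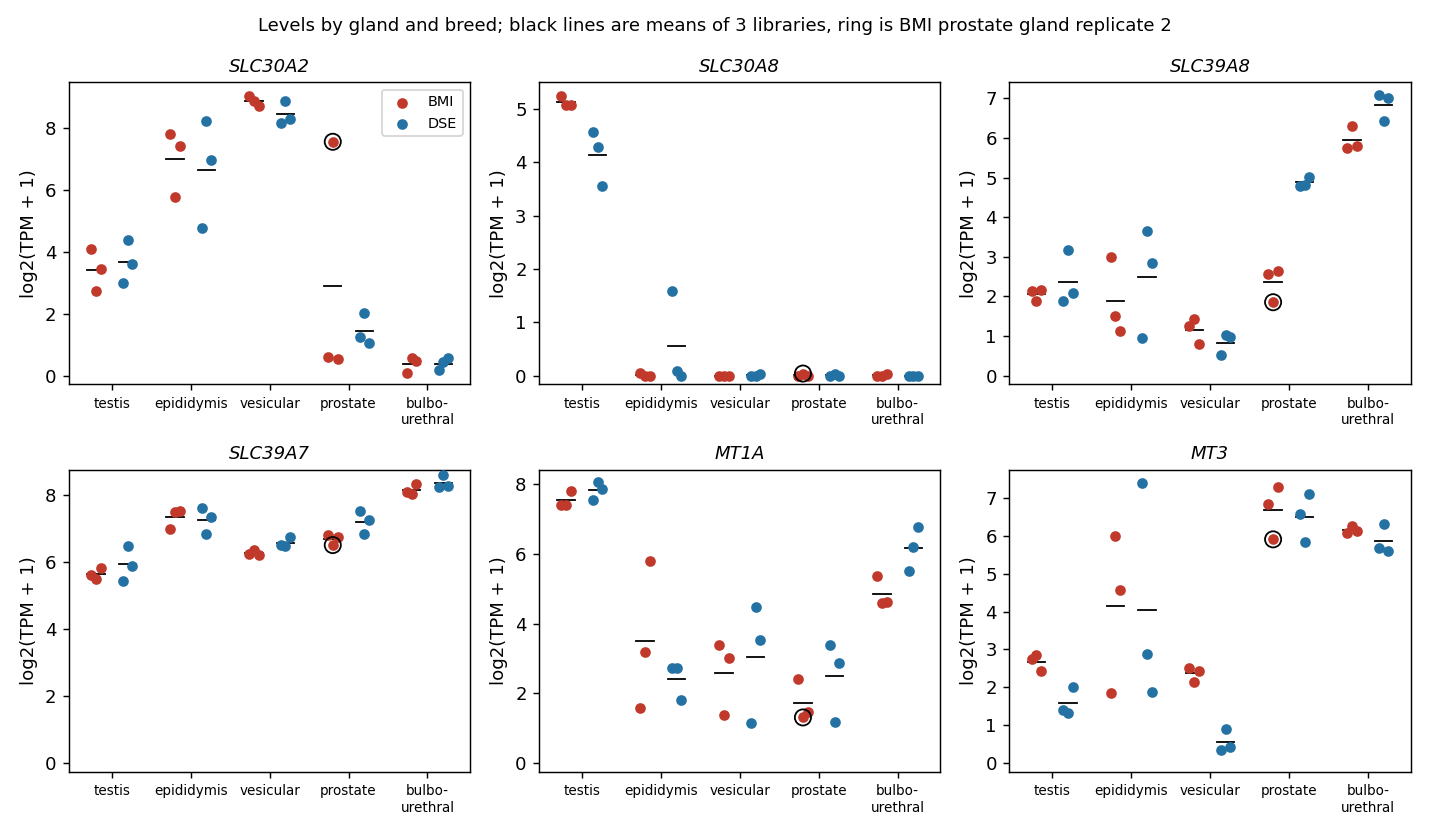
Level of SLC30A2, SLC30A8, SLC39A8, SLC39A7, MT1A and MT3 (1 panel each) in every RNA-seq library by gland, as log2(TPM + 1), with BMI and DSE in separate colours and a line at the mean of 3 libraries. The ringed SLC30A2 point of BMI prostate gland 2 (186.6 TPM) lies far above the other prostate libraries, and the bulbourethral libraries of SLC39A8 (53.0 to 134 TPM) lie above all other libraries.

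SLC30A8, whose product ZnT8 is best known for loading zinc into insulin granules of pancreatic beta cells, was a testis transcript in these data. Its 6 testis libraries had 10.7 TPM at the lowest, 27.7 at the median and 36.7 at the highest. Elsewhere the highest value was 0.0557 TPM, apart from DSE epididymis 1 with 2.02 TPM, so the testis libraries did not overlap the other 24. The testis difference was 4.56 (SE 0.15). SLC30A1, the plasma membrane exporter ZnT1, was likewise above all other libraries in testis, at 18.2 to 33.9 TPM against at most 17.0 elsewhere (log2 difference 1.81, SE 0.19, adjusted p = 6.04e-09). SLC30A4, a vesicular exporter, was higher in epididymis (1.51) and testis (1.16), and its 6 vesicular gland libraries (0.442 to 1.64 TPM) were all below the other 24 (2.63 TPM or more). No member was below all other libraries except SLC30A4 in vesicular gland, and such a gap was found for 1.6% of all genes in that gland. The Iso-seq reads of SLC30A4, given below, did not show this gap.

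SLC30A3, known for filling synaptic vesicles with zinc, depended on how its transcripts were summed. By gene name it was 0 to 1.82 TPM in testis and 1.71 to 37.5 TPM elsewhere, a testis difference of -2.91, with higher values in vesicular gland (1.10) and prostate gland (1.37). However, 4 Iso-seq isoforms carry its gene identifier without its name. With them, the mean was 14.1 TPM ± 5.69 (SD, n = 6) in testis, against 22.3 in vesicular gland, 22.7 in prostate gland, 11.13 in bulbourethral gland and 25.4 in epididymis. None of its 3 calls remained by identifier, the testis difference being -0.45 (adjusted p = 0.0405). The other exporters varied less: SLC30A7, of the Golgi, was higher in bulbourethral gland (1.14), and SLC30A5, SLC30A6 and SLC30A9 were called in no gland.

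Among the importers, SLC39A8 (ENSSSCG00000009169, chr8:118604914-118678115, plus strand) was concentrated in bulbourethral gland. Its product ZIP8 carries zinc and manganese, and also cadmium, into cells. The bulbourethral libraries had 53.0 TPM at the lowest, 81.1 at the median and 134 at the highest, and no other library exceeded 31.6 TPM. The difference was 4.14 (SE 0.28, adjusted p = 1.13e-11), and bulbourethral gland exceeded prostate gland, the next in order, by 2.77 (SE 0.35, adjusted p = 2.27e-06). Vesicular gland was lowest, at 0.430 to 1.71 TPM (log2 difference -2.60). This and the lower calls in testis (-1.08) and epididymis (-1.12) did not hold with Ensembl transcripts alone. The testis call was also lost without DSE testis 1, and the epididymis call without BMI epididymis 3 or DSE epididymis 1.

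SLC39A7 and SLC39A11 were also highest in bulbourethral gland. SLC39A7, which releases zinc from the endoplasmic reticulum and Golgi, was the most abundant member, at 258, 303 and 386 TPM (lowest, median and highest) in bulbourethral gland and 42.5 to 195 TPM elsewhere. SLC39A11 was 85.4, 106 and 130 TPM there and 8.13 to 50.7 TPM elsewhere. Neither gene's bulbourethral libraries overlapped the rest, and the differences were 1.64 and 1.88. With SLC39A8, 3 members were above all other libraries in this gland, against 1.73% of all genes. Testis had the least SLC39A7 (42.5 to 87.2 TPM, log2 difference -1.44), and epididymis had the least SLC39A11 (log2 difference -1.33).

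Testis held 3 further importers at higher levels. SLC39A4, the transporter of dietary zinc in the intestine, was 5.23, 7.19 and 9.63 TPM (lowest, median and highest) in testis and at most 0.645 TPM elsewhere (log2 difference 2.72, SE 0.09). SLC39A13, a Golgi and vesicle transporter known from connective tissue, was 31.4 to 90.1 TPM in testis (1.48), and SLC39A6 was 9.55 to 24.1 TPM (1.45). SLC39A13 was 30.6 to 43.9 TPM in bulbourethral gland, the next in order, which testis exceeded by 0.60 (SE 0.23) without a call. With MT1A, SLC30A1 and SLC30A8, SLC39A4 made 4 members whose testis libraries were above all others, against 23.8% of all genes. The calls of SLC39A13, SLC39A6 and SLC30A4 in testis were lost when each library was rescaled without its 10 most abundant genes. Germ cell markers summed to 23540 to 105800 TPM in testis and to at most 945 TPM elsewhere, and their part in these differences was not tested.

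The importers SLC39A1, SLC39A9, SLC39A10 and SLC39A14 were found in all 5 glands without a call. SLC39A1, a plasma membrane importer, ranged from 14.5 to 81.7 TPM over the 30 libraries. SLC39A14, which carries manganese and iron as well as zinc, was 12.6 to 27.5 TPM in vesicular gland and 4.80 to 17.7 TPM elsewhere. SLC39A2 and SLC39A5 were low, and are described with the breeds. SLC39A5, a transporter known from intestine and pancreas, was higher in vesicular gland (log2 difference 1.49), through the DSE libraries.

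The metallothioneins are shown first by their coding sequences, because their cysteine codons define the family and because their similarity limits how well reads can be assigned to each. MT1A (ENSSSCG00000061081, chr6:18672001-18673672, plus strand) and MT3 (ENSSSCG00000024305, chr6:18634261-18636131, plus strand) lie in 1 cluster with further metallothionein genes that the annotation leaves unnamed. The most abundant of those, ENSSSCG00000030300 (chr6:18645153-18646033, plus strand), is MT1X in the table of gene names and MT-2B in RefSeq. The annotated coding sequences were read 5′ to 3′ from Sscrofa11.1 (RefSeq assembly), with cysteine codons in capitals.
MT1A: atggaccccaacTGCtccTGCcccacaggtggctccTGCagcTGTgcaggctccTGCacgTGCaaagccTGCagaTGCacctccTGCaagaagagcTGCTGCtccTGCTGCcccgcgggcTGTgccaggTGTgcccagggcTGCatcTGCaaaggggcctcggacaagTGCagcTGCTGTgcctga
MT3: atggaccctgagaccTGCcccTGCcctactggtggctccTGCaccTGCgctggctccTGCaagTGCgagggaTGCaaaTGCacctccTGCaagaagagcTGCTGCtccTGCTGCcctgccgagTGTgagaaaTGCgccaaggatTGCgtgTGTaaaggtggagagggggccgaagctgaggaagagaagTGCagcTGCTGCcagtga
ENSSSCG00000030300: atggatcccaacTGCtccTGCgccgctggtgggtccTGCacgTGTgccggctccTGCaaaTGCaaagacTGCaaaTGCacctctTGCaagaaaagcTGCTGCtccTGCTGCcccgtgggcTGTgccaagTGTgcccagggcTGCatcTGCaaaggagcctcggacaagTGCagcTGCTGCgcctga
MT1A and ENSSSCG00000030300 have 186 coding bases each, with 20 cysteine codons among 61 (32.8%), and MT3 has 207, with 20 of 68 (29.4%). MT1A is identical to ENSSSCG00000030300 at 90.3% of aligned coding bases, to ENSSSCG00000024911 at 93.0%, to ENSSSCG00000051968 at 94.1% and to MT3 at 73.2%. ENSSSCG00000059404 has a longer coding sequence (342 bases). Its alignment to MT1A has 342 columns, of which 179 are identical and 156 are gaps. Reads can therefore be split among these copies, and the values of single metallothionein genes are uncertain.

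MT1A was a testis and bulbourethral gene. It was 170, 204 and 268 TPM (lowest, median and highest) in testis, 23.1, 42.3 and 108 TPM in bulbourethral gland, and at most 54.3 TPM elsewhere. The testis libraries were above all others, while a BMI epididymis library (54.3 TPM) lay within the bulbourethral range. The difference was 4.34 (SE 0.45, adjusted p = 2.94e-09) in testis and 1.61 in bulbourethral gland, and -2.64, -1.74 and -1.57 in prostate gland, vesicular gland and epididymis. MT3, first known as a growth inhibitory factor of brain, had another order: 56.7 to 155 TPM in prostate gland, 47.5 to 78.8 TPM in bulbourethral gland, 1.49 to 6.22 TPM in testis and 0.270 to 4.71 TPM in vesicular gland. In epididymis it ran from 2.61 TPM to 167.5 TPM, the latter in DSE epididymis 1. MT3 was higher in prostate gland (3.17) and bulbourethral gland (2.45), which did not differ from each other beyond their spread (0.58, SE 0.64, adjusted p = 0.659), and lower in vesicular gland (-3.25) and testis (-2.42).

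The cluster as a whole followed neither named gene. ENSSSCG00000030300 was 77.2 to 140.5 TPM in testis, 28.8 to 289.5 TPM in vesicular gland, 100.7 to 456.8 TPM in prostate gland, 562 to 1381 TPM in bulbourethral gland and 26.4 to 2101 TPM in epididymis. It took 30.7% of the summed TPM of the 6 cluster genes in testis and between 65.7% and 82.1% in the other glands, whereas MT1A took 60.1% in testis and between 1.21% and 6.18% elsewhere. The cluster sum had a mean of 347 TPM ± 54.5 (SD, n = 6) in testis, 138 ± 104 in vesicular gland, 343 ± 146 in prostate gland, 1121 ± 286 in bulbourethral gland and 760 ± 1005 in epididymis. The epididymis mean rested on BMI epididymis 3 (2681 TPM), without which it was 376 ± 396 (SD, n = 5). Fitted as 1 gene, the sum was higher in bulbourethral gland (2.14, SE 0.46, adjusted p = 3.61e-04) and lower in vesicular gland (-1.97, SE 0.46, adjusted p = 4.76e-04). In testis the sum did not pass the test (0.06, SE 0.46, adjusted p = 0.914), unlike MT1A alone.

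Metallothionein promoters hold metal response elements, which MTF1 binds, so the 250 bases before each annotated start were searched on both strands for the core letters TGCACNC and TGCGCNC. The windows of the metallothioneins above and of SLC30A1, a textbook MTF1 target, are printed 5′ to 3′ on the gene's strand from Sscrofa11.1, with matches in capitals, at chr6:18671751-18672000, chr6:18644903-18645152, chr6:18634011-18634260 and chr9:131632725-131632974, all on the plus strand.
MT1A: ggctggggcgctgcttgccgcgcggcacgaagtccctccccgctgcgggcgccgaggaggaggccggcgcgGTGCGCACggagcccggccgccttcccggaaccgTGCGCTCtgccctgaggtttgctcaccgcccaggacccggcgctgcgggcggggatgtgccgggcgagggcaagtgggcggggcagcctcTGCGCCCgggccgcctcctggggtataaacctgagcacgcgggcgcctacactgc
ENSSSCG00000030300: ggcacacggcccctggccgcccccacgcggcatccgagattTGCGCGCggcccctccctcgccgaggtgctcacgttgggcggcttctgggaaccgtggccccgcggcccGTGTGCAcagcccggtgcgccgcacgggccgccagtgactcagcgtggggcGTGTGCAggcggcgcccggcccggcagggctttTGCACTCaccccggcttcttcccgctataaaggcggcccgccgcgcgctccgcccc
MT3: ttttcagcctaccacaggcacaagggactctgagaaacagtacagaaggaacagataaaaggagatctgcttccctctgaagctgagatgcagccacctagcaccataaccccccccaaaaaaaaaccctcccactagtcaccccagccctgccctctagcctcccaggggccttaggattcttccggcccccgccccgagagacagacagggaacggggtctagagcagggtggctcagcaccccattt
SLC30A1: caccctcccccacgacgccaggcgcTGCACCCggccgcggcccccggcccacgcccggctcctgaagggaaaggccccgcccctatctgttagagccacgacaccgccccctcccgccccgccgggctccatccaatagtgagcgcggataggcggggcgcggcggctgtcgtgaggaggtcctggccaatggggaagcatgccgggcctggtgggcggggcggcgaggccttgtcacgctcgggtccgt
MT1A had 4 matches, of which a forward and a reverse one overlap, and ENSSSCG00000030300 also had 4. The SLC30A1 window had 1 match and the MT3 window none, which says only that these letters are not in this window. At least 1 match was found in 6 of 23 members searched (MT1A, SLC30A1, SLC30A6, SLC39A6, SLC39A8 and SLC39A10) and in 27.8% of 19438 promoters. At least 3 matches were found in 1 member, MT1A, and in 1.93% of promoters. A match is a description of the letters and not a measured site.

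MTF1 itself was 15.4 to 34.5 TPM in testis and at most 6.85 TPM elsewhere (log2 difference 2.74, adjusted p = 5.00e-10). Other genes of metal handling were counted from lists, and the most changed gene of a list in a gland is named with its calls. Of 8 tested zinc-handling genes, 2 were higher and 2 lower in testis (34.5% and 12.7% of all genes), with TMEM163, a vesicular zinc transporter, at 2.80. GPR39, a zinc-sensing receptor, was higher in epididymis (1.76) and vesicular gland (1.23) and lower in testis (-1.38) and prostate gland (-1.23). Of 10 copper-handling genes, 6 were higher in testis (34.5% of all genes) and 5 were lower in vesicular gland (30% of all genes). COMMD1 was higher in testis (3.47) and lower in vesicular gland (-1.89) and prostate gland (-1.13). Extracellular superoxide dismutase SOD3 was higher in epididymis (2.36) and testis (1.74) and lower in vesicular gland (-2.51), and the copper chaperone CCS was higher in testis (1.34) and lower in bulbourethral gland (-1.09). Of 8 iron-handling genes, 2 were higher and 1 lower in testis, and 1 was higher and 5 lower in vesicular gland (2.96% and 30% of all genes). Ceruloplasmin (CP) was lower in testis (-2.35) and prostate gland (-1.78) and higher in epididymis (3.03) and vesicular gland (1.20). STEAP4, a metalloreductase, was higher in epididymis (3.80) and lower in bulbourethral gland (-1.10), and STEAP3 was lower in vesicular gland (-2.37) and epididymis (-1.54) and higher in prostate gland (2.02) and bulbourethral gland (1.67).

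Genes of the carbonic anhydrase family, zinc peptidases and phosphatases, and stress genes also differed between glands. Of 11 tested genes of the carbonic anhydrase family, 4 were higher and 2 lower in testis (34.5% and 12.7% of all genes). CA3 was higher in testis (5.14) and lower in prostate gland (-2.12) and vesicular gland (-1.89). CA2 was higher in prostate gland (4.40) and testis (2.17) and lower in bulbourethral gland (-2.81), epididymis (-2.64) and vesicular gland (-1.13), and CA8 was higher in bulbourethral gland (3.43) and lower in prostate gland (-1.93). Of 16 zinc peptidases and phosphatases, 8 were higher in epididymis (15.1% of all genes), 7 were lower in testis (12.7%) and 6 were lower in vesicular gland (30%). Alkaline phosphatase ALPL was higher in epididymis (6.48) and testis (1.65) and lower in bulbourethral gland (-2.93), prostate gland (-2.91) and vesicular gland (-2.29). ACE, with a known testis form, was higher in testis (5.61) and lower in vesicular gland (-2.11), bulbourethral gland (-1.83) and prostate gland (-1.26). ANPEP was higher in prostate gland (3.19) and lower in vesicular gland (-2.43) and epididymis (-1.02). Of 10 cadmium and stress response genes, 5 were higher and 2 lower in testis (34.5% and 12.7% of all genes). NQO1 was higher in testis (5.04) and lower in vesicular gland (-2.25), bulbourethral gland (-1.37) and prostate gland (-1.33), and SRXN1 was higher in testis (3.23) and lower in bulbourethral gland (-1.59) and vesicular gland (-1.34). JUN was higher in epididymis (1.49) and lower in testis (-2.31), and FOS was higher in vesicular gland (2.29) and lower in testis (-3.19).

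The second question was whether the inbred line differed from its parent breed. BMI was compared with DSE within each gland, 3 libraries against 3. In vesicular gland, 2 of 20 members tested were called (MT3 higher and SLC39A5 lower in BMI), with 1.18% of all genes called; both passed the filter on low values through the breed where they were high, so this count is a description. In prostate gland, 1 of 20 was called, SLC39A8, lower in BMI, with 0.341% of all genes called. Without BMI prostate gland 2, 938 genes were called there in place of 46. No member was called in testis (0 of 21, 0.621% of all genes), epididymis (0 of 20, 0% of all genes) or bulbourethral gland (0 of 18, 0.0218% of all genes) by limma, and 2, 1 and 2 members there had an unadjusted p below 0.05 (13.6%, 1.9% and 5.53% of all genes). The all-gene median was 0.42 in vesicular gland and -0.39 in prostate gland. After scaling by median-of-ratios size factors, the share of calls that were higher in BMI went from 77.3% to 42.1% in vesicular gland and from 10.9% to 41.2% in prostate gland. The BMI libraries did not overlap the DSE libraries for 39.7% of all genes tested in prostate gland, 27.9% in vesicular gland, 24.7% in testis, 10.7% in bulbourethral gland and 5.34% in epididymis.

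**Figure D4:**
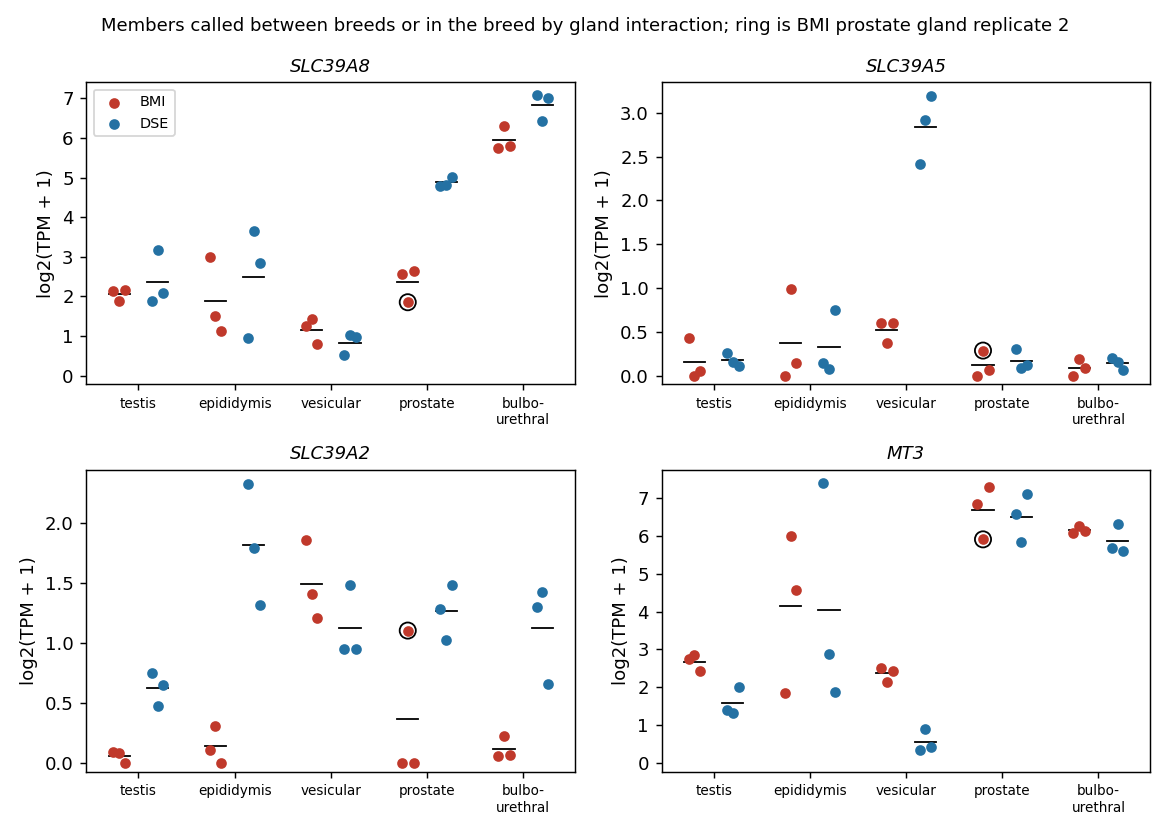
Level of SLC39A8, SLC39A5, SLC39A2 and MT3 (1 panel each) in every library by gland, as log2(TPM + 1), with BMI and DSE in separate colours, a line at the mean of 3 libraries and a ring around BMI prostate gland 2. SLC39A8 in prostate gland was 2.61 to 5.22 TPM in BMI and 26.9 to 31.6 TPM in DSE, and the breeds did not overlap.

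SLC39A8 in prostate gland was 4.94, 2.61 and 5.22 TPM in BMI libraries 1, 2 and 3 and 26.9, 27.2 and 31.6 TPM in DSE libraries 1, 2 and 3. The difference was -2.53 (SE 0.25, adjusted p = 0.0193), and -2.28 (adjusted p = 0.00320) without BMI prostate gland 2, the library that held vesicular gland markers and had the least SLC39A8. The call was lost when BMI library 1 or any DSE library was left out, at an adjusted p of 0.0893 to 0.176. It was also lost with the replicate block (adjusted p = 0.120) and without a filter on low values (adjusted p = 0.0724), and with Ensembl transcripts alone SLC39A8 had no test there. In bulbourethral gland the BMI libraries of SLC39A8 (53.0, 77.7 and 54.4 TPM) were also below the DSE libraries (134, 84.6 and 127 TPM), by -0.89, with an adjusted p of 0.437.

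SLC39A5 in vesicular gland was 0.512, 0.297 and 0.511 TPM in BMI libraries 1 to 3 and 4.35, 6.53 and 8.11 TPM in DSE libraries 1 to 3 (log2 difference -2.32, SE 0.31). In the other glands no library exceeded 0.986 TPM. MT3 in vesicular gland was 4.71, 3.44 and 4.40 TPM in BMI and 0.270, 0.863 and 0.335 TPM in DSE (1.81, SE 0.30). Each gene passed the filter in this gland through the breed where it was high. The differences of SLC39A5 and MT3 are therefore descriptions, given without a p. Both sets of libraries were without overlap between breeds, at low levels, as were 27.9% of all genes tested in this gland. Leaving out a DSE library took SLC39A5, and leaving out a BMI library took MT3, below the filter of 1 TPM in 3 libraries, so these had no test there. Both calls were also lost without a filter (adjusted p = 0.144 for SLC39A5 and 0.176 for MT3) and with Ensembl transcripts alone. The MT3 call was also lost in one fit of all 30 libraries (adjusted p = 0.426). In testis, MT3 had the lowest p of the members (1.10 higher in BMI, SE 0.27, adjusted p = 0.163), and its BMI libraries (4.38 to 6.22 TPM) were above the DSE libraries (1.49 to 3.02 TPM). In bulbourethral gland the lowest p was that of MT1A, at 40.2, 23.1 and 23.8 TPM in BMI and 44.4, 72.5 and 108 TPM in DSE (-1.30, SE 0.35, adjusted p = 0.435). Of the genes outside the families, SOD3 (-1.88, adjusted p = 0.0234) and CA8 (2.34, adjusted p = 0.0171) were called in prostate gland. Of the unnamed metallothionein genes, ENSSSCG00000030300 was called in vesicular gland (1.88 higher in BMI, adjusted p = 0.0265) and ENSSSCG00000059404 in testis (-2.07, adjusted p = 0.0253). The cluster sum was called in neither gland (1.51, adjusted p = 0.104 in vesicular gland, and -0.16, adjusted p = 0.768 in testis).

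SLC39A2, an importer known from skin, was low, and it was called between breeds in no gland. In testis the BMI libraries had 0 to 0.0633 TPM and the DSE libraries 0.392 to 0.682 TPM. In epididymis BMI had 0 to 0.239 TPM and DSE 1.49 to 4.01 TPM, and in bulbourethral gland BMI had 0.0395 to 0.170 TPM and DSE 0.581 to 1.68 TPM. In prostate gland BMI libraries 1 and 3 were at 0, BMI library 2 had 1.15 TPM, and DSE had 1.03 to 1.80 TPM. In vesicular gland the breeds also overlapped, with 1.31 to 2.62 TPM in BMI and 0.928 to 1.80 TPM in DSE. The epididymis difference was -1.67 (SE 0.36). SLC39A2 passed the filter on low values in that gland through the DSE libraries alone, so this is a description, given without a p. Without BMI prostate gland 2, the prostate difference was -1.26, and SLC39A2 then passed the filter on low values through the DSE libraries alone.

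The breed difference itself was compared across the 5 glands with an F test over all 30 libraries. It was called for SLC39A2 (F = 7.314, adjusted p = 0.0239) and SLC39A5 (F = 21.98), 2 of 23 members, where 2.94% of all genes were called. SLC39A5 entered this test through the 3 DSE libraries of vesicular gland alone, so its value is a description. The SLC39A2 call was lost with a pseudocount of 0.1, with size factors (adjusted p = 0.357) and without the 10 most abundant genes (adjusted p = 0.153), and when either BMI epididymis 3, BMI vesicular gland 1, DSE vesicular gland 1 or DSE vesicular gland 3 was left out. The SLC39A5 call was lost with a pseudocount of 0.1.

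The annotation merges Ensembl transcripts with Iso-seq isoforms, and the members had 207 transcripts in the expression table, 152 of them from Iso-seq. Of 19 members with several transcripts and a level of at least 5 TPM in at least 2 glands, 7 had more than 1 leading transcript over the 5 glands. The number was 6 when only libraries with at least 5 TPM of the gene were read. In SLC39A13 the transcript ENSSSCT00000053681 (11 exons, 1049 bases, of which 975 coding) took 44.8% ± 13.2 (SD, n = 6) of its TPM in testis. It took 19.2% in DSE testis 2, the library with low germ cell markers, and 45.3% to 55.9% in the other testis libraries. Outside testis it was at 0, apart from 2.23% in BMI vesicular gland 1.

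**Figure D5:**
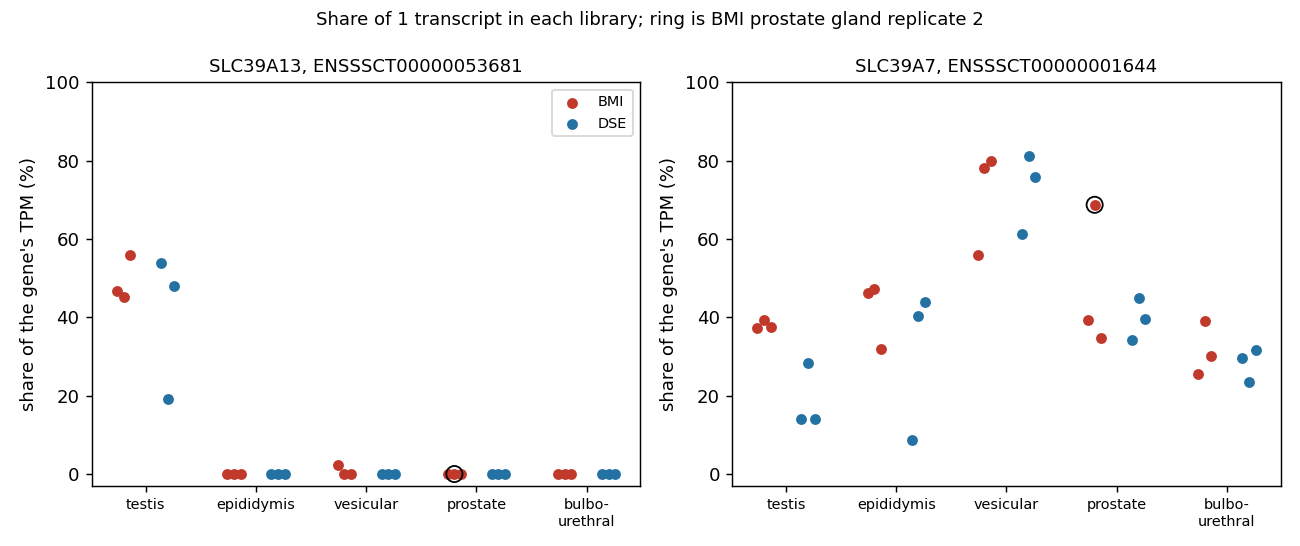
Share of a gene's TPM (percent) taken by 1 transcript of SLC39A13 (left) and 1 of SLC39A7 (right) in every library by gland, with BMI and DSE in separate colours and a ring around BMI prostate gland 2. The testis points of ENSSSCT00000053681 run from 19.2% to 55.9% and the others lie at or near 0, whereas ENSSSCT00000001644 is highest in vesicular gland.

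ENSSSCT00000001644, with 1410 coding bases, had its highest share of SLC39A7 in vesicular gland. There it took 72.1% ± 10.7 (SD, n = 6) of the TPM, against means of 28.4% to 43.6% in the other glands. An Iso-seq isoform with 354 annotated coding bases took a mean of 9.70% in vesicular gland, all of it from BMI vesicular gland 1 (32.4%) and DSE vesicular gland 1 (25.8%), and 35.5% to 49.5% elsewhere. Without BMI vesicular gland 1 its vesicular mean was 5.15%. ENSSSCT00000001644 exceeded that isoform in 6 of 6 vesicular, 4 of 6 epididymis, 3 of 6 testis, 3 of 6 prostate and 0 of 6 bulbourethral libraries. In BMI prostate gland 2 the shares were 68.7% for ENSSSCT00000001644 and 7.58% for the isoform. Without that library the prostate means were 38.5% and 41.0%, in place of 43.6% and 35.5%. For SLC39A8 in epididymis, 1 Iso-seq isoform took 44.0% and at most 5.42% elsewhere, although SLC39A8 was low there. Shares of transcripts with common exons are estimates by the quantification tool.

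Iso-seq gave a readout of the same glands without replicates. The 10 libraries held 231413 to 458697 full-length reads in the listed isoforms, of which 8411 were from members, in 201 isoforms. SLC30A2 had 234 reads (95% exact Poisson interval 205 to 266) in BMI vesicular gland and 238 (209 to 270.2) in DSE vesicular gland. It had 41 and 29 reads in epididymis, 1 in DSE prostate gland and 299 in BMI prostate gland, an Iso-seq library that also held 1848 reads of the vesicular gland gene AWN, which had 0 in DSE prostate gland. SLC39A8 had 125 (104 to 149) and 214 (186 to 245) reads in BMI and DSE bulbourethral gland and at most 68 elsewhere. In prostate gland it had 7 reads (2.81 to 14.4) in BMI and 68 (52.8 to 86.2) in DSE. The prostate marker MSMB also had fewer reads in the BMI prostate library (11, against 123 in DSE), and the vesicular gland gene PSP-I had 4029 there and 0 in DSE; the part of this in the SLC39A8 counts was not tested. SLC30A8 had 10 and 7 reads in testis and at most 1 in any other library. Intervals cover counting error only. Of 17 members with at least 50 reads, 10 had the same highest gland in both assays. The 5 members MT1A, SLC39A2, SLC39A4, SLC39A5 and SLC39A12 had no listed isoform.

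Genes whose log2 levels followed a member most closely over the 30 libraries were listed for the more abundant named metallothionein and the most abundant transporter. For MT1A these were CPNE5 (Pearson r = 0.893), CKS2 (0.883), ENSSSCG00000059404 (0.882), ANKEF1 (0.878) and PIGU (0.860). Of these, ENSSSCG00000059404 is another gene of the metallothionein cluster, and reads can be split between it and MT1A. For SLC39A7 they included CNPY2 (0.947), IMP3 (0.944), DCTD (0.933) and CREB3 (0.928). These correlations are descriptions over n = 30 libraries that share glands and the scaling of TPM.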

How the data were processed

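Processed files of 30 RNA-seq and 10 Iso-seq libraries were analysed; the 30 small RNA libraries were not used here. Per the labels, RNA-seq libraries were made after rRNA depletion, whereas the study's methods name poly-T beads. The authors clustered the long reads of all samples together (IsoSeq3), mapped them to Sscrofa11.1 (susScr11) with GMAP, merged them with the Ensembl annotation, and quantified short reads with Salmon 1.9.0. The submitters' processing notes also name STAR 2.7.10a and Bowtie 1.3.1. The deposited RNA-seq values are TPM per transcript, which keep no sequencing depth; the read totals that the study lists were not used here. For Iso-seq, the authors deposited read counts of each isoform (full-length reads, not normalized), which sum to 231413 to 458697 per library. Isoforms of few reads are not listed.

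TPM of 133722 transcripts were summed by gene name (by gene ID where no name was given), filtered at 1 TPM in 3 libraries and tested as log2(TPM + 1) by limma 3.58.1 in R 4.3.3 (lmFit, eBayes with trend, Benjamini-Hochberg). Log2 differences on this scale understate the changes of low genes. Gland contrasts and the breed by gland F test used all 30 libraries with 10 group means, and breed contrasts used the 6 libraries of a gland. Samples were grouped by GEO's labels. The code was tested on simulated data. The members, gene lists and named genes were chosen with earlier results of these data known. Named were the 6 most abundant members and the metallothioneins, up to 3 higher and 2 lower members of a gland, members called between breeds (or with the lowest p), MTF1, and the most changed gene of each list in a gland; other members were accounted for more briefly. Alternatives were the pseudocount, filter, scaling, prior, transcripts summed, replicate block, samples in the fit and each library left out. No columns belonged to samples outside the series (0).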

Additional observations from a re-analysis of the deposited data

Results flagged for a closer look

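Of 97 tests of single libraries (6 libraries in a gland), 9 found a library beyond Dixon's 95% critical value, and chance gives about 1 in 20. SLC30A2 was 186.6 TPM in BMI prostate gland 2 and 0.445 to 3.07 TPM in the other prostate libraries. In DSE epididymis 1, SLC30A3 (1.71 TPM), SLC30A6 (5.21 TPM) and SLC30A9 (11.7 TPM) were below the other epididymis libraries, which had 8.89 to 18.7, 13.3 to 17.3 and 26.2 to 36.5 TPM. In DSE vesicular gland 1, SLC30A7 (8.31 TPM), SLC30A9 (8.14 TPM) and SLC39A9 (9.72 TPM) were below the others, at 15.6 to 20.7, 13.4 to 17.7 and 16.4 to 20.5 TPM. The 10 most abundant genes took 67.0% of TPM in that library. In DSE testis 2, SLC39A1 (50.8 TPM) and SLC39A8 (7.95 TPM) were above the others, at 23.8 to 28.3 and 2.66 to 3.44 TPM. The vesicular gland markers of BMI prostate gland 2 and the low germ cell and high Leydig and Sertoli cell markers of DSE testis 2 stand beside 3 of these 9 values, and their part was not tested. The low CRISP1 of DSE epididymis 1 (21.3 TPM, against at least 1100 in the other epididymis libraries) stands beside its 3 values and was not tested either. The transcript integrity scores that the study lists were not used here.

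The breed difference changed between glands by the limma F test for SLC39A2 (F = 7.314, adjusted p = 0.0239), a call lost under several alternatives, and for SLC39A5 (F = 21.98), which passed the filter on low values only through the 3 DSE libraries of vesicular gland, where it is high.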

How the results depend on the processing

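No called result of a member changed direction under the alternatives run. With Ensembl transcripts alone, 7 members were called in vesicular gland in place of 11, and with the metallothionein cluster summed (chosen after seeing the data) 3 in prostate gland in place of 5. Members whose 6 libraries did not overlap the other 24 numbered 4 in testis (26.9% of all genes), 3 in bulbourethral gland (1.88%), 1 in vesicular gland (1.88%) and 0 in epididymis (3.05%) and prostate gland (0.191%). Leaving out 1 library gave 10 to 12 calls in testis, 8 to 11 in vesicular gland, 5 in prostate gland, 8 in bulbourethral gland, 4 to 5 in epididymis and 87 to 96 of the pairwise tests. Between breeds it gave 1 to 2 in vesicular gland, 0 to 2 in prostate gland and 0 in the other glands, and 0 to 4 for the F test. Breed calls in vesicular gland numbered 0 without a filter, 0 with Ensembl transcripts alone, 1 in one fit of all libraries, 1 with the cluster summed and 4 with the replicate block. Those in prostate gland numbered 0 without a filter, with Ensembl transcripts alone and with the replicate block, and 2 without BMI prostate gland 2, DSE testis 2 and DSE epididymis 1 together (chosen after seeing the data). In epididymis, one fit of all libraries called 1 member. The F test called 0 members with a pseudocount of 0.1, 1 with size factors, 1 without the 10 most abundant genes and 4 without the 3 libraries. Known isoforms alone gave 6 members with the same highest gland in both assays, in place of 10; SLC30A2, SLC30A6 and SLC39A6 had no reads of known isoforms, and SLC39A7 changed gland. Leaving out BMI epididymis 1 and DSE epididymis 2 together (chosen after seeing the data) ended the lower calls of SLC39A8 in testis and SLC39A6 in vesicular gland and the F test call of SLC39A2, and SLC30A5 in testis and the F test of SLC39A8 then passed.

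Of 40 gland calls of single members, 22 held under every alternative that tested them, and of 3 breed calls 0 did. With size factors the share of higher calls went from 73.1% to 66.7% in testis (55.6% without the 10 most abundant genes), from 69.7% to 48.3% in epididymis, from 22.4% to 29.4% in prostate gland (43.8% without those genes), from 8.97% to 38% in vesicular gland and from 41.4% to 32.6% in bulbourethral gland. Both scalings ended the lower calls of MT1A, SLC30A1, SLC39A6 and SLC39A13 in vesicular gland. Calls over all genes moved by over 1.5 times as follows. A pseudocount of 0.1 gave 6543 in place of 4309 in epididymis, 10465 in place of 6563 in vesicular gland, 5955 in place of 3289 in prostate gland and 6810 in place of 4063 in bulbourethral gland. Size factors gave 3818 in vesicular gland, and Ensembl transcripts alone gave 3646 there and 2704 in bulbourethral gland. Between breeds, the 102 calls in testis became 31 without a filter, 26 with Ensembl transcripts alone, 258 with the block and 949 in one fit. The 150 in vesicular gland became 1, 5, 678 and 95 in the same order, the 46 in prostate gland 0, 15, 0 and 119, the 3 in bulbourethral gland 0, 1, 2 and 59, and the 0 in epididymis 140 in one fit. A pseudocount of 0.1, size factors and rescaling gave 18, 17 and 20 in prostate gland and 10, 19 and 31 in bulbourethral gland, where a fit without the trend gave 12. Leaving out 1 library gave 3 to 258 in testis, 57 to 445 in vesicular gland, 0 to 5 in bulbourethral gland and 0 to 938 in prostate gland, the highest without BMI prostate gland 2. The F test called 586 genes, and 278 with a pseudocount of 0.1, 1061 without a filter and 237 with Ensembl transcripts alone, and 357 to 1178 with 1 library left out. Replicate numbers were not taken to pair the samples. Not every correlation of same-numbered libraries was over 0.1, which cannot show that pairing is absent. Between glands of a breed, 20 of 60 same-numbered pairs were over 0.1 (median 0.0471), against 18 of 120 with different numbers (median -0.0224), and between breeds of a gland 4 of 15 (median -0.0421) against 10 of 30 (median 0.0225). Under the replicate block the breed call of SLC39A8 was lost, and SLC30A1 (1.07) and SLC30A3 (1.33) were also called in vesicular gland. In a breed fit this block joins BMI and DSE libraries of the same number, which cannot come from 1 animal.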
